A study of Mus musculus with 16 samples.

Results

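The 6 gametogenic transcription factor genes Sohlh1, Sohlh2, Figla, Lhx8, Nobox and Tcfl5, were followed across mouse primordial germ cells (PGCs), from which eggs and sperm descend, in 16 libraries of 3′ RNA sequencing. They were picked by symbol, 6 of the 26219 genes listed, because Sohlh2 was known to be lower in the Prdm1 conditional knockout (CKO) libraries and Tcfl5 to be higher at later stages. Those contrasts are therefore described here without a test. PRDM1 (BLIMP1) is a transcriptional repressor needed for PGC specification, and the series title concerns its continued requirement later on.

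In the floxed set, 4 control and 4 CKO libraries came from E11.5 (embryonic day) PGCs of strain C57BL/6. All 8 carried Prdm1(flox/flox) and Rosa26(neo-EYFP/+), and the CKO libraries also carried Dppa3-MCMP(Tg/0), a transgene named for the germ cell gene Dppa3 with which Cre recombination is induced by 4-OHT. Pregnant females with floxed alleles received 3 mg of 4-OHT per 25 g body weight at 10.5 dpc, so the controls lacked the transgene and not the drug. Floxed cells were sorted as EYFP-positive or with an antibody to SSEA-1, and the labels do not tie either sort to a group. In the wild-type set, PGCs carrying Dppa3(EGFP/+) on the mixed strain ICR:C57BL/6=1:1 gave 2 libraries each at E10.5, E11.5, E13.5 male and E13.5 female. No label ties a replicate to its own embryo or litter, and p-values here measure only the spread between these libraries, which may be technical.

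SOHLH1, SOHLH2, FIGLA and TCFL5 are basic helix-loop-helix (bHLH) proteins, which as a class bind DNA as dimers at the E-box, CANNTG. In mice SOHLH1 and SOHLH2 act in differentiating spermatogonia and in the oocytes of young follicles, and FIGLA, the LIM-homeobox protein LHX8 and the homeobox protein NOBOX act in early oocytes. TCFL5 acts in spermatocytes. Several of these factors were named among the genes that can impose an oocyte-like programme on cultured mouse cells.

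Values are in RPM, reads scaled to the gene-assigned total of the library, with no division by length, so levels are compared between libraries and not between genes. Judged from the steps between low values, floxed libraries held about 2798000 to 5032000 reads and wild-type ones 1485000 to 4783000, and 3 reads, used as the limit that a count of 0 allows, correspond to 0.596 to 1.07 RPM and 0.627 to 2.02 RPM. Summed over 9 germ cell markers the libraries held 3185 to 9460 RPM, and over 5 macrophage markers 0.589 to 6.74 RPM. CKO library 4 stood apart, with 243.8 RPM over 10 gonadal somatic and mesenchymal markers against 9.76 to 98.2 RPM in the other floxed libraries, and control 1 had the fewest genes at 5 RPM or more, 9062. Prdm1 itself was listed at 66.2, 50.7, 63.0 and 73.0 RPM in the controls and at 79.9, 84.1, 76.6 and 89.4 RPM in the CKO libraries (limma, adjusted p = 0.164). A 3′ tag can lie outside the deleted part, so neither the deletion nor the labels are checked by it, and the libraries are called CKO-labelled.

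The promoters of Sohlh2 and Tcfl5, the members with most reads, and of Sohlh1, the member whose promoter held the most E-boxes, are printed 5′ to 3′ as RefSeq gives them for GRCm38.p6, from 250 bases before to 50 after the gene start. They lie on mouse chromosomes 3 (plus strand, chr3:55181794-55182093), 2 (minus strand, chr2:180642642-180642941) and 2 (minus strand, chr2:25847199-25847498). Capitals mark every CANNTG.
Sohlh2: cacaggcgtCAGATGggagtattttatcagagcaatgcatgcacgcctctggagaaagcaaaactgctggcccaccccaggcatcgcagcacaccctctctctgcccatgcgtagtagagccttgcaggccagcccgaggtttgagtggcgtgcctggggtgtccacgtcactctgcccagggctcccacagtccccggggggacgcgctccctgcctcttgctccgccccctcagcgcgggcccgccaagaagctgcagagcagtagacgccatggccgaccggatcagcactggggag
Tcfl5: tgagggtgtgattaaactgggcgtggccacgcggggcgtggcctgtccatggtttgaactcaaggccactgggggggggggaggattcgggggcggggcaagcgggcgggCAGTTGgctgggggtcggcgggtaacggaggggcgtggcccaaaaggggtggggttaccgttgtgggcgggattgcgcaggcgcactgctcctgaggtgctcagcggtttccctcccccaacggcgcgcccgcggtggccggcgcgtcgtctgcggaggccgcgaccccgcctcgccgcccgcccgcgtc
Sohlh1: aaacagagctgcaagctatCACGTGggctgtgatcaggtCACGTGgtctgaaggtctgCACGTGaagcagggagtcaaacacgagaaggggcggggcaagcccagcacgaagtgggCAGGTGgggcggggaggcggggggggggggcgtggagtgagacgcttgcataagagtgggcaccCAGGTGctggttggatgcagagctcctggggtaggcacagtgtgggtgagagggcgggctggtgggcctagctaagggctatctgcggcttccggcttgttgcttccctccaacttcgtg

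All 6 members matched a promoter. The motif CANNTG reads as a motif of the same form on both strands, and 69.1% of 18351 RefSeq promoters of the same length held at least 1. Sohlh1 held 5 (1.68% of promoters held as many), of which 3 were the palindrome CACGTG, itself an E-box (0.109% held as many). Figla held 4 E-boxes (5.33%), Nobox 2 (36.0%), Sohlh2 and Tcfl5 1 each, and Lhx8 none. The Figla and Nobox windows (chromosome 6, 86016941 to 86017240 and 43309505 to 43309804) surround a start inside the gene's span and not its outer end. The Tcfl5 promoter held 35 CpG dinucleotides, a number reached by 8.71% of promoters, against 17 for Sohlh2 (42.7%), 16 for Figla (44.8%), 14 for Sohlh1 (49.0%), 13 for Nobox (51.0%) and 4 for Lhx8 (75.7%). GAAAGT, a core of the sequence that PRDM1 binds, was found on either strand in the Lhx8 promoter alone among the members (13.9% of all promoters), and TAATTG, the NOBOX element, in none of the 6 (7.07% of all promoters). These matches describe letters in a window and no binding was measured.

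Sohlh2, the bHLH partner of SOHLH1 (Entrez gene 74434, chromosome 3, 55182044 to 55209957, GRCm38.p6, plus strand), was the member listed lower in the CKO libraries. In the controls it stood at 64.2, 73.6, 46.2 and 73.0 RPM, and in the CKO-labelled libraries at 36.2, 26.8, 28.7 and 22.5 RPM. Every CKO-labelled library lay below every control, and the share of all genes that separate in this way was not counted. The means were 64.2 ± 12.8 and 28.6 ± 5.72 RPM (SD, n = 4 each), a ratio of 0.445 and a log2 fold change of -1.14, given without a test because this contrast chose the gene. Of 9384 genes tested 2.43% were called in the comparison, 1.93% as higher and 0.501% as lower in the CKO-labelled libraries. Leaving out each library in turn put the log2 fold change between -1.29 and -1.03, and leaving out control 1 and CKO-labelled 4 together put it at -1.03. The somatic and mesenchymal marker sum was 12.7 to 70.0 RPM in controls and 9.76 to 243.8 RPM in CKO-labelled libraries. Pre-granulosa markers (4 genes) summed to 0.883 to 7.96 RPM in controls and 6.76 to 37.5 RPM in CKO-labelled libraries. Fst was at most 1.59 RPM in the former and at least 3.18 RPM in the latter. Wnt4 (0 to 5.17 and 1.15 to 28.6 RPM) and Irx3 (0.438 to 1.19 and 0.929 to 3.57 RPM) overlapped between the groups. The highest Wnt4 value was in CKO-labelled library 4. Foxl2 was at 0 in all controls and at most 0.232 RPM in CKO-labelled libraries. The germ cell marker sum was 3572 to 3990 RPM in controls and 3185 to 3684 RPM in CKO-labelled libraries. The part of these markers in the Sohlh2 difference was not tested. In such bulk samples fewer cells of a type and less RNA per cell cannot be told apart.

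In wild-type PGCs, contrasts that did not choose the gene, Sohlh2 was listed at 26.6 and 26.3 RPM at E10.5, and at 48.5 and 56.7 RPM at E11.5. At E13.5 it stood at 119 and 110 RPM in males and at 204.5 and 203.7 RPM in females. No group overlapped another, and the order was E10.5, E11.5, E13.5 male, E13.5 female. With 2 libraries per group such separation is easily reached, and the share of all genes that show it was not counted.

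From E10.5 to E11.5 Sohlh2 rose from 26.4 ± 0.270 to 52.6 ± 5.77 RPM (SD, n = 2 each), a log2 fold change of 0.96 ± 0.15 (SE; limma across all genes, Benjamini-Hochberg adjusted p = 0.000107). In that comparison 4.28% of 10749 genes were called, 2.31% as higher and 1.97% as lower at E11.5, and 213 genes had a larger log2 fold change. The rise to E13.5 was 1.94 ± 0.15 in females (limma, adjusted p = 1.78e-11) and 1.11 ± 0.15 in males (adjusted p = 6.68e-07) on the log2(RPM + 1) scale. Such calls were common, with 51.2% of genes called between E11.5 and the females (31.2% higher and 20.0% lower in females) and 38.2% between E11.5 and the males (22.3% higher and 15.9% lower). Larger rises were seen in 4.93% and 8.20% of genes, respectively. Females exceeded males by 0.83 ± 0.15 (limma, adjusted p = 5.03e-05), in a comparison that called 37.6% of genes, 21.2% as higher and 16.4% as lower in females. Each neighbour in the order thus differed beyond the spread, and each of these 4 calls was kept in 16 of 16 alternative analyses. The wild-type comparisons share libraries and are not independent of each other.

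**Figure D1:**
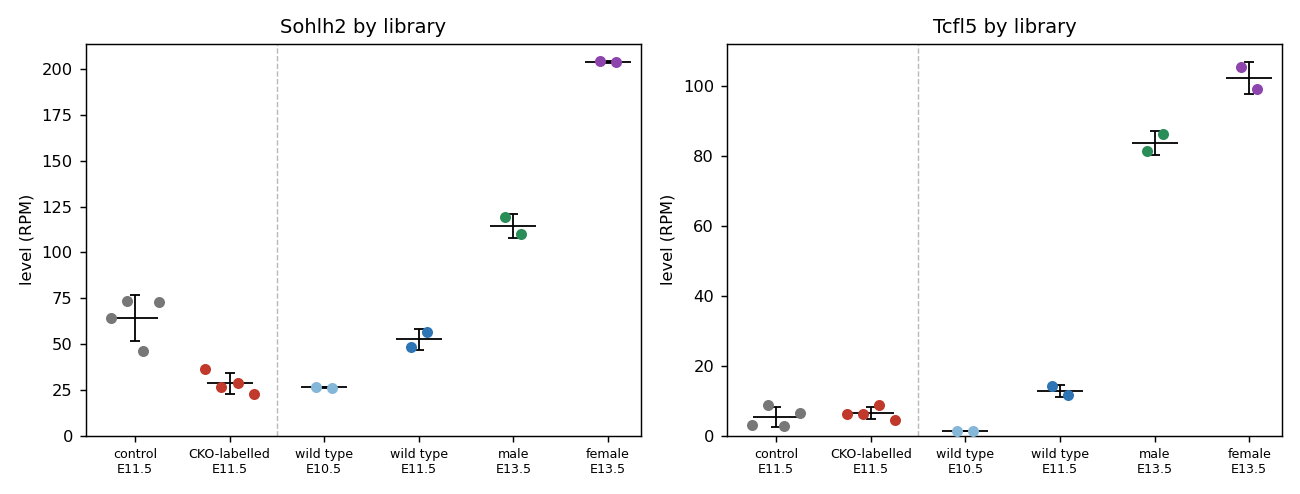
Level in RPM of Sohlh2 and Tcfl5 in each library (points) of the 6 groups, with the group mean (dash) and SD (bars). The dashed line separates 2 tables that the authors normalised separately. Sohlh2 lies at 22.5 to 36.2 RPM in CKO-labelled and 46.2 to 73.6 RPM in control libraries, and Tcfl5 overlaps between those groups.

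The stage levels can be set beside the floxed ones only as values, since the tables were normalised separately. Sohlh2 had a mean of 52.6 RPM in wild-type and 64.2 RPM in control PGCs at E11.5. Its mean was 28.6 RPM in CKO-labelled PGCs at E11.5 and 26.4 RPM in wild-type PGCs at E10.5. Tcfl5 differed from this, with means of 12.9 RPM in wild-type and 5.28 RPM in control PGCs at E11.5. The Tcfl5 mean was 6.54 RPM in CKO-labelled PGCs and 1.32 RPM in wild-type PGCs at E10.5. The 10 gonadal somatic and mesenchymal markers summed to 55.1 to 61.5 RPM at E10.5 and 6.06 to 6.55 RPM at E11.5, and 6 red cell markers to 212.9 to 223.9 and 5.98 to 14.8 RPM. Their part in the E10.5 to E11.5 differences was not tested.

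Tcfl5 (Entrez gene 277353, chromosome 2, 180621956 to 180642691, minus strand) was listed at 1.35 and 1.28 RPM at E10.5, from 3 and 4 reads, and at 14.1 and 11.7 RPM at E11.5. At E13.5 it stood at 81.5 and 86.3 RPM in males and at 105.6 and 99.2 RPM in females. The means were 1.32 ± 0.0521, 12.9 ± 1.75, 83.9 ± 3.38 and 102 ± 4.49 RPM (SD, n = 2 each). The log2 fold changes of 2.58 (E11.5 against E10.5), 2.90 (female E13.5 against E11.5) and 2.61 (male) are given without a test, as stage chose the gene. With a pseudocount of 10 in place of 1 the first of these became 1.02, and with 0.1 it became 3.19, since the E10.5 level rests on 7 reads.

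2 contrasts of Tcfl5 were open to test. Females stood 0.28 ± 0.24 (SE, log2) above males, without overlap but short of the threshold (limma, adjusted p = 0.380, and 0.0662 to 0.666 over 16 alternatives, none called). In pooled reads the female to male ratio was 1.23, with a 95% interval of 1.10 to 1.37 that covers counting error only. In the floxed libraries Tcfl5 was listed at 2.94, 8.75, 2.85 and 6.59 RPM in controls and at 6.27, 6.36, 8.90 and 4.65 RPM in CKO-labelled libraries. The groups overlapped, with means of 5.28 ± 2.90 and 6.54 ± 1.76 RPM (SD, n = 4 each) and a log2 fold change of 0.35 ± 0.33 (SE; limma, adjusted p = 0.761, and 0.522 to 0.920 over 15 alternatives).

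The last 237 bases of Tcfl5, at its 3′ end, lie under the end of Col9a3, a cartilage collagen gene on the plus strand, and whether reads were counted by strand is not given in the sources used here. It therefore cannot be told whether reads of 1 gene were counted for the other. Col9a3 was listed at a mean of 0 RPM at E11.5, 10.7 ± 1.37 RPM in E13.5 males and 3.25 ± 0.450 RPM in E13.5 females (SD, n = 2 each). The Col9a3 mean was higher in males and the Tcfl5 mean higher in females, though the Tcfl5 difference was not called.

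**Figure D2:**
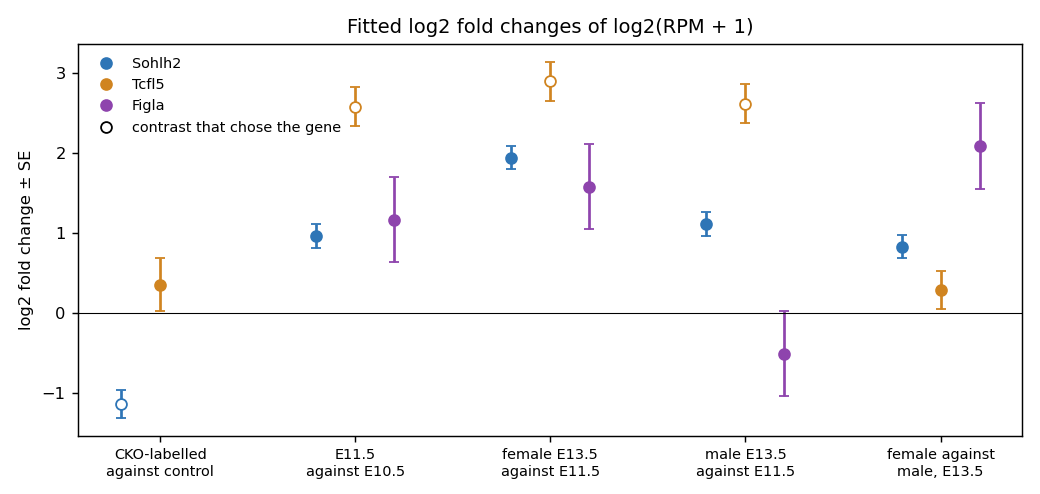
Log2 fold change ± SE of log2(RPM + 1) for the 3 members that passed the filter, in the 5 comparisons. Hollow points mark the contrasts that chose the gene. Sohlh2 lies above 0 in all 4 wild-type comparisons, from 0.83 to 1.94, and the Tcfl5 female to male difference is 0.28 ± 0.24.

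Figla, an oocyte bHLH factor (Entrez gene 26910, chromosome 6, 86016494 to 86020996, plus strand), was near the detection limit except in E13.5 females. It was listed at 7.94 and 6.30 RPM there, from 38 and 23 reads. In males it stood at 1.67 and 0.352 RPM, at E11.5 at 2.02 and 1.42 RPM, and at E10.5 at 0.451 and 0 RPM. The pooled female to male ratio was 7.03, with a counting interval of 3.05 to 19.9. The fitted female to male log2 fold change was 2.09 ± 0.54 (limma, adjusted p = 0.00276), and the female change from E11.5 was 1.58 ± 0.54 (adjusted p = 0.0153). Figla passed the filter of 5 RPM in 2 libraries only through the females, so it had to differ and these calls support nothing further. The first was lost without male replicate 2 (adjusted p = 0.0676) and the other without E11.5 replicate 2 (0.062) or with a pseudocount of 0.1 (0.154). In the floxed set Figla had 4 reads over the controls and 3 over the CKO-labelled libraries, so no difference was detectable at this depth.

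Lhx8, the LIM-homeobox factor (Entrez gene 16875, chromosome 3, 154306288 to 154330560, minus strand), was below the filter and got no test. It was listed at 5.02 and 3.02 RPM in E13.5 females, at 4.34 and 1.06 RPM in E13.5 males, at 0.673 and 1.42 RPM at E11.5 and at 0 RPM in both E10.5 libraries. Both females lay above both E11.5 libraries, while the males overlapped each of these groups. The pooled female to E11.5 ratio was 3.46 with a counting interval of 1.44 to 10.1, and the female to male ratio 1.51 with an interval of 0.816 to 2.93. Against the limit of 3 reads over the 2 E10.5 libraries, 0.562 RPM, E11.5 stood at 1.20 RPM in pooled reads, from 6 reads. Its counting interval, 0.441 to 2.61 RPM, includes that limit. The floxed libraries ran from 0 to 0.883 RPM, with 6 reads over the controls and 4 over the CKO-labelled.

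Nobox, the homeobox factor of newborn oocytes (Entrez gene 18291, chromosome 6, 43303674 to 43310072, minus strand), was also below the filter. It was listed at 1.00 and 3.87 RPM in E13.5 males and at 0.627 and 0.822 RPM in females. At E11.5 it stood at 1.35 and 1.14 RPM and at E10.5 at 0 RPM in both libraries. The female to male ratio in pooled reads was 0.297 (counting interval 0.0934 to 0.821), and most of the male reads came from library 2, with 11 of 14. Male library 1 held 3 reads, as did each female library, so its higher RPM follows from its lower depth. Male library 1 was the higher of the males for Lhx8 and male library 2 for Nobox. In the floxed set Nobox ran from 0 to 0.883 RPM, with 6 and 5 reads over the groups.

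Sohlh1, the partner of SOHLH2 (Entrez gene 227631, chromosome 2, 25842995 to 25847248, minus strand), was hardly detected. Its 7 reads in E13.5 females gave 0.627 and 1.10 RPM, and 3 reads in males gave 0.334 and 0.704 RPM. No read was listed at E10.5 or E11.5, which allows up to 0.562 and 0.600 RPM in the pooled libraries. Females, at 0.830 RPM in pooled reads, had a counting interval of 0.334 to 1.71 RPM that includes the E11.5 limit. Controls and CKO-labelled libraries held 3 reads each.

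**Figure D3:**
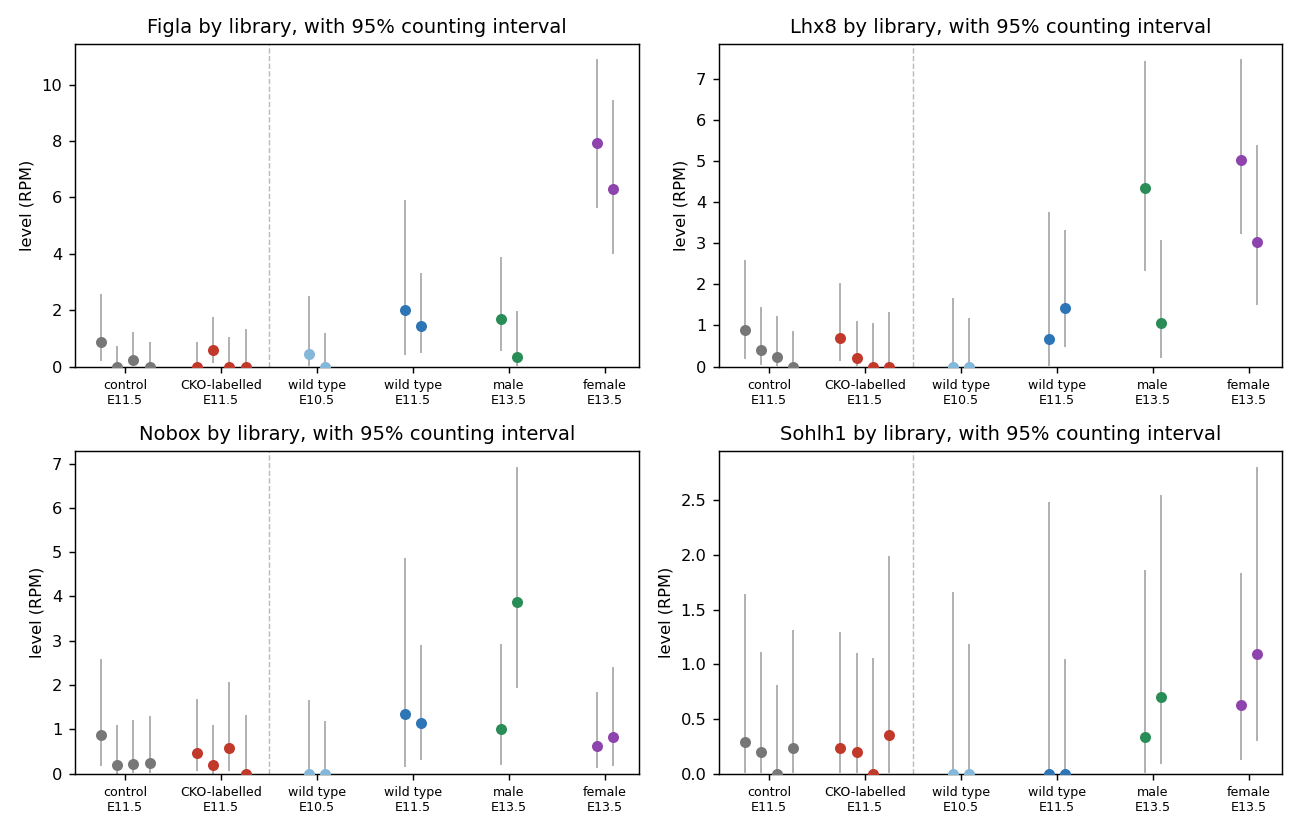
Level in RPM of Figla, Lhx8, Nobox and Sohlh1 in each library (points), with the 95% Poisson interval of its reads (grey bars), which covers counting error only. Figla reaches 7.94 and 6.30 RPM in the females, and the males differ from each other for Lhx8 (4.34 and 1.06 RPM) and Nobox (1.00 and 3.87 RPM).

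Lists of genes that work with the members were read beside them. The E protein genes Tcf3, Tcf4 and Tcf12 encode common dimer partners of tissue bHLH factors, and Id1 to Id4 encode proteins that sequester E proteins without binding DNA. None of the 7 was called in CKO-labelled against control libraries or from E10.5 to E11.5, where 2.43% and 4.28% of all genes were called. At E13.5 against E11.5, 5 rose and 1 fell in females (median log2 fold change 1.22, against 0.13 over all genes), and 3 rose and 4 fell in males (median -0.39, against 0.11). Over all genes 51.2% were called in the female and 38.2% in the male comparison.

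Id1 stood at 21.9 and 41.8 RPM in the E11.5 libraries, 5.28 and 6.35 RPM in males and 191 and 210.1 RPM in females, a female to male log2 difference of 4.89 ± 0.23 (SE; limma, adjusted p = 5.8e-16). Id3 went from 230.1 ± 6.35 RPM to 49.0 ± 2.04 RPM in males and 286 ± 3.15 RPM in females, a female to male difference of 2.52 ± 0.11 (limma, adjusted p = 1.16e-16). Id2 was also higher in females than in males, at 34.0 ± 0.0620 and 3.11 ± 1.09 RPM (3.12 ± 0.32, adjusted p = 1.13e-08).

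Id4 and Tcf12 rose in both sexes, Id4 from 6.15 ± 2.98 RPM to 24.9 ± 0.281 RPM in males and 41.7 ± 2.73 RPM in females, and Tcf12 from 35.1 ± 4.60 to 64.3 ± 11.6 and 83.0 ± 6.74 RPM. Tcf4 was lower in females than in males, at 11.9 ± 0.581 and 30.4 ± 3.81 RPM (-1.28 ± 0.29, adjusted p = 0.000921). Between the sexes 3 of the 7 were higher in females and 1 lower, where 37.6% of all genes were called.

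5 Sertoli markers summed to 9.16 to 19.4 RPM in males and 0.822 to 1.25 RPM in females. Ptgds was at 11.4 and 5.63 RPM in males and at 0 and 0.274 RPM in females. Dhh was at 5.01 and 1.06 RPM in males and Sox9 at 2.34 and 1.41 RPM, both at 0 in females. Cldn11 overlapped, at 0.668 and 1.06 RPM in males and 1.25 and 0.548 RPM in females. The Sertoli product Amh was at 0 in all 4 E13.5 libraries. The mesonephric markers summed to 78.2 to 80.6 RPM in males and 9.87 to 13.4 RPM in females. Of these, Lhx1 alone was higher in both males, at 77.15 and 80.6 RPM against 12.8 and 8.50 RPM in females. Pax2 and Cdh16 were at 0 in all 4 libraries. Pax8 was at 1.00 and 0 RPM in males and at 0.627 and 1.37 RPM in females. Their part in the sex differences was not tested.

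**Figure D4:**
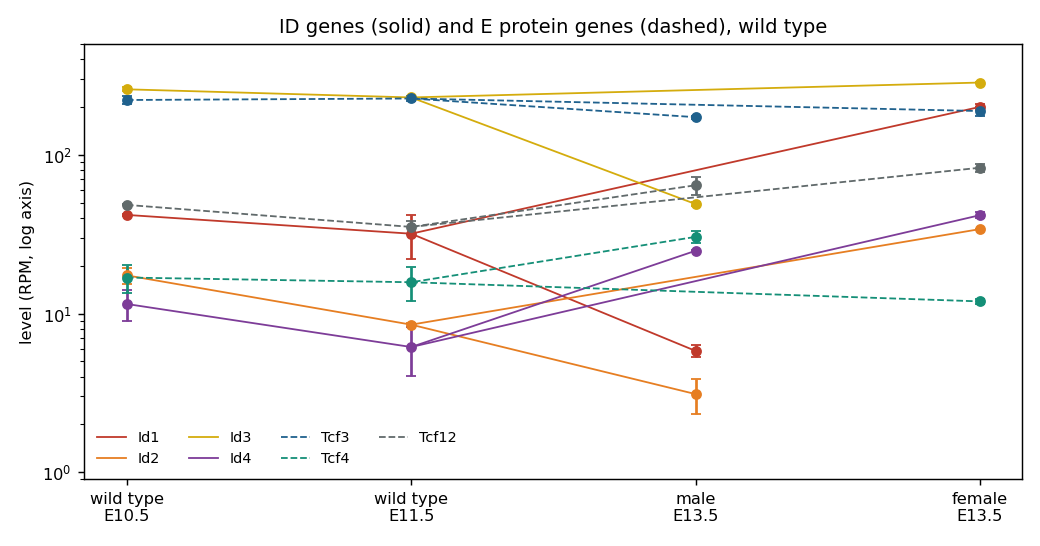
Mean level in RPM (log axis) of the ID genes (solid lines) and E protein genes (dashed lines) in the 4 wild-type groups, 2 libraries each, with bars from the lower to the higher library and lines joining E11.5 to each sex. Id1 falls to 5.81 RPM in males and rises to 201 RPM in females.

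Genes known in mice to depend on the members in oocytes were mostly below the filter. Of 14 on the list, which includes the zona pellucida genes Zp1 to Zp3 and Gdf9, Bmp15 and Nlrp5, 2 passed the filter in the floxed set and 3 in the wild type. Zp2 was at 0 in all 8 wild-type libraries, while Nlrp14 had means of 3.09 to 4.87 RPM there and Nlrp5 one of 3.90 ± 2.52 RPM in males. Kit, the receptor that SOHLH factors raise in spermatogonia, had a mean of 248 ± 19.8 RPM over the controls and of 185 ± 15.8 RPM over the CKO-labelled libraries (SD, n = 4 in each group; log2 fold change -0.42 ± 0.10, limma adjusted p = 0.036), but was called in 6 of 16 alternatives, with adjusted p up to 0.158. It was among those lost when any 1 CKO-labelled library was left out. In the wild type Kit stood at 209 ± 16.3 RPM at E11.5, 140 ± 4.68 RPM in males and 208 ± 14.4 RPM in females, a fall in males (-0.57 ± 0.11, limma adjusted p = 0.000155). The pluripotency factor gene Pou5f1 fell in both sexes, from 748 ± 4.98 RPM to 528 ± 4.28 and 375 ± 15.7 RPM. Of the 3 that passed the filter in the wild type, none was called from E10.5 to E11.5, where 4.28% of all genes were called. Between the sexes 1 was higher and 1 lower in females, where 37.6% of all genes were called. With 3 genes these counts do not describe the list.

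Among 12 regulators of spermatogonia, 4 passed the filter in the floxed set and 1 was called, where 2.43% of all genes were called. This was the forkhead gene Foxo1, which fell from 121 ± 11.8 to 77.5 ± 10.6 RPM (SD, n = 4 each). Its log2 fold change was -0.64 ± 0.12 (limma, adjusted p = 0.0119, called in 16 of 16 alternatives). In the wild type 9 passed. Dmrt1, a DM-domain factor gene, rose from 23.0 ± 3.20 to 44.1 ± 6.13 RPM between E10.5 and E11.5 (0.91 ± 0.16, limma adjusted p = 0.00109). That call was lost without E10.5 replicate 1 and without a filter (largest adjusted p 0.0581). At E13.5 Dmrt1 reached 133 ± 16.6 RPM in males and 136 ± 11.7 RPM in females. Against E11.5, 5 of the 9 were called higher and none lower in E13.5 females, and 5 higher and 2 lower in males, where 51.2% and 38.2% of all genes were called. Stra8 and Dmrtb1 passed the filter through the females alone and Nanos2 through the males alone, so they had to differ and their calls support nothing. Stra8, the gatekeeper of meiotic entry, was listed at 0 at E11.5 and at 407 ± 6.64 RPM in females against 1.21 ± 0.773 RPM in males, and Nanos2, a male germ cell RNA-binding protein, at 0 at E11.5 and 39.5 ± 3.42 RPM in males against 0.105 ± 0.148 RPM in females. Dmrtb1 was at 9.06 ± 0.792 RPM in females and 0 in males. Taf4b, a TFIID subunit gene of germ cells, rose from 42.6 ± 4.11 to 80.9 ± 0.364 RPM in males and 93.2 ± 0.715 RPM in females. Between the sexes 3 were higher and 3 lower in females, those 3 genes included, with 37.6% of all genes called.

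Of 8 transcription factor genes of spermatocytes, the stage in which TCFL5 acts, 3 passed the filter in the floxed set. None of these was called, where 2.43% of all genes were called. From E10.5 to E11.5 none of 7 was called, where the share over all genes was 4.28%. Against E11.5, 4 were called higher and 1 lower in E13.5 females and 2 higher in males, where 51.2% and 38.2% of all genes were called. Zfp541 and Sox30 passed the filter through the females alone, so they had to differ there. Taf7l, a germ cell TFIID subunit gene, went from 0.337 ± 0.476 RPM at E11.5 to 11.0 ± 3.32 RPM in males and 50.1 ± 8.20 RPM in females (limma, adjusted p = 0.000659 between the sexes, lost with a pseudocount of 0.1). Zfp541 was at 0 at E11.5, 0.510 ± 0.223 RPM in males and 12.6 ± 4.25 RPM in females, and Sox30 was at 3.17 and 4.34 RPM in males and 12.9 and 15.9 RPM in females. Between the sexes, with 37.6% of all genes called, 3 were higher and 1, Rfx2, lower in females, at 14.0 and 16.7 RPM against 22.5 and 38.7 RPM, and the Rfx2 call was lost without male replicate 1 or female replicate 1.

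The other factors of the oocyte-inducing set, Stat3, Tbpl2, Dynll1 and Sub1, had 3 of 4 above the filter, with Tbpl2 at 0 in all 16 libraries. None was called in the floxed set or from E10.5 to E11.5, where 2.43% and 4.28% of all genes were called. Against E11.5, 51.2% of all genes were called in E13.5 females and 38.2% in males. In females against E11.5 Stat3 was called higher, at 5.85 ± 5.42 and 15.5 ± 7.61 RPM, a call lost without E11.5 replicate 1 or female replicate 1 (adjusted p up to 0.293). Dynll1 fell in females from 1513 ± 17.9 to 1273 ± 15.0 RPM and rose in males to 1920 ± 94.1 RPM (limma, adjusted p = 0.00809 and 0.000742), the female call lost without female replicate 2 (0.0569).

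Genes were ranked by nearness of profile over all 16 libraries. The measure was the mean absolute difference of log2(RPM + 1), centred on the gene's own mean in each table. Candidates were the 6923 named genes whose mean reached 10 RPM in each table, with predicted and unnamed genes left out. Tcfl5 itself, at means of 5.28 and 6.54 RPM in the floxed groups, was below that cut. Nearest to Sohlh2 was Mov10l1, a piRNA pathway helicase gene (0.24), followed by Dmrtc1c2 (0.28), Smarca2 (0.30), Dmrtc1c1 (0.30) and Rbm44 (0.32), against a median of 0.77 over genes. The Mov10l1 difference was 0.095 over the wild-type libraries but 0.385 over the floxed ones, the largest of these 5 genes there. Over the floxed libraries Dmrtc1c2 was the nearest of the 5, at 0.19. Dmrtc1c1 and Dmrtc1c2 are near-identical copies, so the split of reads between them is uncertain. Mov10l1 averaged 30.8 ± 12.5 RPM over the controls and 21.0 ± 7.0 RPM over the CKO-labelled libraries, and went through 15.7 ± 0.466, 31.9 ± 0.366, 79.2 ± 7.94 and 119 ± 2.0 RPM at E10.5, E11.5, male and female E13.5.

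Nearest to Tcfl5 was Dazl, a germ cell RNA-binding protein gene (0.28), then Scml2 (0.41), Mael (0.42), Tuba3b (0.45), whose reads may be shared with a near-identical tubulin gene, and Slc25a31 (0.45), against a median of 1.21. Dazl was at 34.2 ± 1.83, 240.0 ± 27.3, 1355 ± 50.3 and 1648 ± 10.6 RPM over the wild-type groups. In the floxed libraries, however, Dazl averaged 228 ± 130 RPM over the controls and 140 ± 50.2 RPM over the CKO-labelled ones, where the Tcfl5 means were 5.28 and 6.54 RPM. The likeness describes these libraries and shares their depth and scaling.

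**Figure D5:**
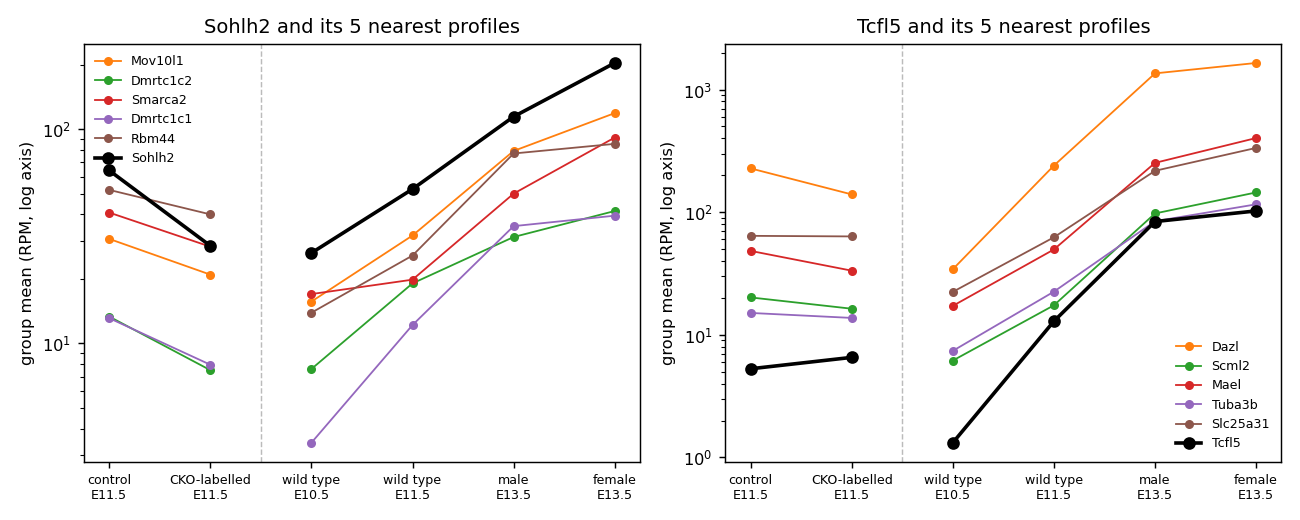
Group means in RPM (log axis) of Sohlh2 and Tcfl5 (black) and of the 5 genes nearest to each in profile, with the separately normalised tables split by the dashed line. The genes share the order E10.5, E11.5, E13.5 male, E13.5 female, which their choice by nearness over these same libraries favours. The Tcfl5 line alone among its 6 lines is higher in CKO-labelled than control means, 6.54 and 5.28 RPM.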

How the data were processed

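RPM values were deposited by the authors in 2 tables, floxed and wild type, each normalised to gene-assigned reads, and cDNA had 11 PCR cycles per the labels' protocols. Per the submitters' processing notes, cutadapt 1.3, TopHat 1.4.1, Cufflinks 2.2.0 and mm10 were used. Between 99.67% and 99.8% of positive values were whole multiples of 1 read within 0.05 reads, and the rest kept the unit as RPM. Groups came from the labels. log2(RPM + 1), which understates changes of low genes, was tested with limma 3.58.1 (lmFit, eBayes with trend) in R 4.3.3, on genes that reached 5 RPM in 4 libraries of the floxed table or 2 of the wild-type one, adjusted by Benjamini-Hochberg over all genes and called under 0.05. The 4 wild-type groups shared 1 fit. Methods were tested on simulated data. Intervals are 95% exact Poisson or conditional binomial and cover counting error only. Members and gene lists were chosen with earlier results of these data known. Named genes are the members, Prdm1, up to 4 called genes per list and comparison with the smallest p, and the 5 nearest profiles. Other genes singled out, Col9a3, Tbpl2, Zp2, Nlrp5 and Nlrp14 and the uncalled members of lists, were chosen after their values were seen. Alternatives covered the pseudocount, the filter, median-ratio scaling, the groups fitted together, leaving out each library, and the replicate number as a block. Voom on rounded reads and a fit without control 1 and CKO-labelled 4 were added after seeing the data.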

Additional observations from a re-analysis of the deposited data

Results flagged for a closer look

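Of 14 groups of 4 libraries (the members and Prdm1) examined for a library far from the others, 2 were picked out, and chance picks about 1 in 20 for continuous values. That share does not apply to counts this low, since 1 library with reads among 3 at 0 is always picked. Figla in CKO-labelled library 2 stood at 0.596 RPM, from 3 reads, with 0 in the other CKO-labelled libraries. Nobox in control 1 stood at 0.883 RPM, also from 3 reads, against at most 0.236 RPM in the other controls.

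The change from E11.5 to E13.5 differed between females and males for 19 of the 51 genes among the members and lists. This was by the test of the difference itself (limma), and not all of the 51 passed the filter. Over all genes tested 37.6% were called in that comparison, so a count of this kind does not set the listed genes apart. On the log2(RPM + 1) scale, female minus male, it was 0.83 for Sohlh2, 2.09 for Figla, 4.89 for Id1, 3.12 for Id2, 2.52 for Id3 and -0.59 for Dynll1. For the other list genes it was 3.33 for Dmrtb1, 0.56 for Kit, 0.32 for Sall4, 1.70 for Sox30, 7.57 for Stra8, 2.11 for Taf7l and 3.15 for Zfp541. It was -0.59 for Foxo1, -5.20 for Nanos2, -0.49 for Pou5f1, -0.91 for Rfx2, -1.28 for Sox3 and -1.28 for Tcf4. Where a group is at or near 0, as for Dmrtb1, Stra8, Nanos2 and Zfp541, the fitted value depends on the pseudocount and is no bound. Figla, Dmrtb1, Stra8, Sox30 and Zfp541 reached 5 RPM in the females alone and Nanos2 in the males alone, so these 6 of the 19 had to differ. Both sexes are compared with the same E11.5 libraries, so each of these equals the difference between the sexes at E13.5.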

How the results depend on the processing

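Sohlh2, Tcfl5 and, in the wild type, Figla kept their direction in each alternative that gave a value, and the Sohlh2 calls in the wild type were kept in all 16. The number of genes called moved more. In CKO-labelled against control it was 228, 139 with the filter at 20 RPM, 101 to 203 with 1 library left out (111, 101, 118 and 139 without CKO-labelled 1 to 4) and 178 without control 1 and CKO-labelled 4. From E10.5 to E11.5 it was 460, 80 without a filter, and 100 to 487 with 1 library left out (100 and 163 without E10.5 replicates 1 and 2). Between the sexes it was 4038, and 2552 to 4429 with 1 library left out (2558 and 2552 without female 1 and 2). Against E11.5 it was 5502 in females and 4105 in males, and 3812 to 5463 and 2884 to 3976 with 1 library left out. Median-ratio scaling turned the E10.5 to E11.5 split from 248 higher and 212 lower into 212 and 281, and moved the median of all genes in females against E11.5 from 0.13 to 0.02 (log2). The cause was not tested.

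Libraries with the same replicate number correlated at 0.241, 0.0198, 0.252 and 0.182 across genes in the floxed set and at -0.0305 to 0.0331 in the wild type, and 3 of 4 floxed pairs were above 0.1. Since not every pair was, the numbers were not taken to pair the libraries, although 6 of 8 floxed libraries correlated best with their own number, a hint from the data and not the design. A replicate block gave 314 calls for CKO-labelled against control, 559 from E10.5 to E11.5, 5563 and 4160 for females and males against E11.5, and 4099 between the sexes. Voom gave 227, 550, 5890, 4200 and 4797. The planned edgeR test was not run, since the values are not all whole reads. Depth limits Sohlh1, Nobox, Lhx8 and Figla, which had at most 61 reads in a group.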
